A study of Rattus norvegicus with 6 samples.

Results

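The rat let-7 family and its close relative miR-98 were represented by 8 probes of the 5560 on a custom vertebrate microRNA (miRNA) array. The members were the probes to which the array annotation gives the rat names let-7a, let-7b, let-7c, let-7d, let-7e, let-7f, let-7i or miR-98, without the passenger strands, whose names end in a star. They make up 8 of the 679 probes with a rat name. A further 21 probes, named for other species, carry a let-7 name or target a sequence within 2 bases of a member. They were used to ask how far a near-match follows the rat probe.

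Kidney RNA of 6 male Big Blue transgenic Fisher 344 rats was hybridized, 1 array per animal. Dosing began at 6 weeks of age, and the control rats (13, 14 and 15) were untreated. The AA rats (19, 20 and 21) received aristolochic acid by gavage, 10.0 mg/kg body weight on 5 occasions a week over 12 weeks, and were killed 1 day after the final dose. Aristolochic acid is a plant nephrotoxin and carcinogen that forms DNA adducts and injures the renal tubule. Big Blue rats carry a bacterial reporter transgene for mutation assays, in both groups alike. RNA came from a portion of the kidney that was not sorted by cell type, and which region was taken is not given in the sources used here. Fewer cells of a type and less RNA per cell therefore cannot be told apart.

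The let-7 miRNAs were among the earliest miRNAs to be discovered. Members of the family share the seed, the bases near the 5′ end that pair with target mRNAs, and known targets include growth and developmental regulators such as RAS proteins, HMGA2 and LIN28. LIN28 in turn blocks the maturation of let-7 precursors. Mature let-7 is scarce in stem cells and early embryos and plentiful in differentiated adult tissues, kidney among them. Several let-7 genes lie in clusters and are transcribed together, some of them with miR-99, miR-100 or miR-125 genes.

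The array targets of all 8 members matched a rat mature miRNA in RefSeq on the GRCr8 assembly, and each is 22 bases long. They are shown here because the whole family differs at so few positions; capitals mark the seed, bases 2 to 8, which is the same in every member.
rno-let-7a: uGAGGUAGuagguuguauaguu
rno-let-7b: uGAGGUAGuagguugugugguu
rno-let-7c: uGAGGUAGuagguuguaugguu
rno-let-7d: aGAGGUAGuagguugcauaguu
rno-let-7e: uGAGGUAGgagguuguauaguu
rno-let-7f: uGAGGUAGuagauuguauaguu
rno-let-7i: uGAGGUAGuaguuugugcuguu
rno-miR-98: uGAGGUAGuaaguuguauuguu

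Counting from 1 at the 5′ end, with the base of let-7a first, let-7c differs from let-7a by A19G, let-7e by U9G and let-7f by G12A. let-7b differs by A17G and A19G, let-7d by U1A and U16C, and miR-98 by G11A and A19U. let-7i is the most distant from let-7a, with G12U, A17G, U18C and A19U. The 31 probes on the array whose target holds this seed at bases 2 to 8 were 0.558% of all probes. They comprised the 8 members, 20 of the related probes and 3 others, mmu-miR-1961, hsa-miR-4458 and hsa-miR-4500, which reached an intensity of 32 in the deposited values on 0, 0 and 1 arrays. The scanner signal of these 3 was at most 56 units above the empty spots.

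In RefSeq, 11 rat genes encode the 8 members, and all coordinates here are on GRCr8. let-7a comes from Mirlet7a1 at chr17:16320133-16320226 and Mirlet7a-2 at chr8:50805203-50805298. The former lies within the lncRNA LOC120097935 together with Mirlet7f-1os (chr17:16320501-16320589), as RefSeq names the locus that holds let-7f, and Mirlet7d (chr17:16322260-16322357). Mirlet7a-2 lies within Mir100hgl beside Mir100. The other let-7f gene, Mirlet7f2 at chrX:24460045-24460127, sits next to Mir98 at chrX:24460648-24460755, both within Huwe1. Mirlet7b (chr7:118684038-118684122) and Mirlet7c2 (chr7:118683623-118683717) are neighbours outside any other annotated gene. The second let-7c gene, Mirlet7c1 at chr11:29688112-29688205, lies within the lncRNA LOC103693508 beside Mir99a. Mirlet7e, at chr1:67350229-67350321 within Spaca6, is flanked by Mir99b and Mir125a. Mirlet7i, at chr7:60527877-60527961 on the minus strand, overlaps LOC134479799. Exons and introns of these host genes were not examined. A probe sees the mature miRNA, so the products of the 2 genes of let-7a, let-7c or let-7f were measured together.

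One array stood apart from its label before any comparison was made. On the array labelled AA 20 the deposited intensity of rno-miR-122, the defining miRNA of hepatocytes, was 15191, against 8.17 to 48.5 on the other 5 arrays. The opossum and pig versions of the miR-122 probe gave 13500 and 14646 there and at most 69.2 elsewhere. In scanner signal the contrast of rno-miR-122 was smaller, with 2026 units above the empty spots on AA 20 and 18.9 to 88.8 on the other 5 arrays. Of the 9 kidney epithelial markers examined, 7 reached 32 on all 6 arrays and 2, miR-215 and miR-204, on none. Their summed intensity was 9073 on AA 20, 12251 to 14195 on the controls and 14016 and 15768 on AA 19 and AA 21. The leukocyte markers miR-142-3p, miR-142-5p and miR-223 and both brain markers, miR-9 and miR-124, were under 32 on every array; miR-150 and miR-146a reached it on all 6. The summed leukocyte signal ran from 1311 to 1938 in AA and from 1774 to 2398 in controls. AA 20 was also the dimmest array, with a mean scanner signal above the empty spots of 149 units against 263 to 484, and 66.8% of the tested probes well above background against 84.8% to 97.9%. Its correlation with the other arrays over the tested probes was 0.82 to 0.87, whereas the other arrays correlated with each other at 0.937 or more. The origin of the liver signal was not tested, and the changes and spreads are given with and without AA 20.

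All 8 member probes gave signal throughout. Each reached 32 in the deposited values, and was well above the empty spots on the scanner, on 6 of 6 arrays. Of all probes, 10.2% reached 32 on all 6 arrays and 20.4% on at least 1 array. The brightest member spot read 41781 of a scanner ceiling of 65535, so no member was saturated. Each member was printed on 2 spots, which differed by a median factor of 1.09 and at most 1.95. Different probes bind their targets with different strength, so signals are compared between arrays for 1 probe and not between probes. Some members differ by only 1 base, and how far a probe also reads its paralogs was not tested. A frog probe 1 base from let-7a, xtr-let-7e, had deposited intensities from 18683 to 24159. Signal on a member probe therefore does not by itself show that its own miRNA was present.

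**Figure D1:**
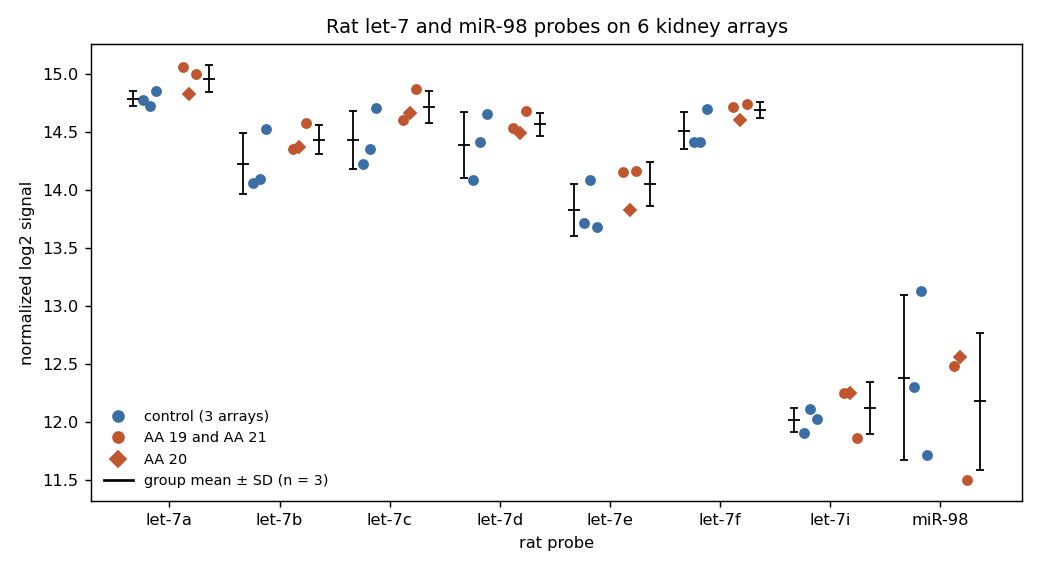
Normalized log2 signal (vertical axis) of the 8 rat probes (horizontal axis) on the 6 arrays, with control arrays in blue, AA arrays in orange, AA 20 as a diamond, and the mean ± SD of each group of 3. The groups overlap for all 8 probes, and miR-98 spans the widest range, from 11.50 to 13.13.

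No member passed the test for a difference between AA and control. By limma with Benjamini-Hochberg adjustment over 1132 tested probes, 0 of the 8 were called at an adjusted p below 0.05, where 0.177% of all tested probes were called. At an unadjusted p below 0.05 the count was also 0 of 8, against 4.95% of all tested probes, and the methods' t-test likewise gave 0 (4.68% of all). In no member did the 3 AA arrays lie wholly above or below the 3 control arrays, a separation seen in 9.98% of the tested probes. The mean of 7 members was higher in AA and that of miR-98 was lower, with a median log2 change of 0.18 beside a median of −0.05 over all tested probes, 45.8% of which were higher. That direction depended on the scaling, since 5 of the 8 were higher after median scaling and 3 of 8 without normalization, and the size did too, since the median was 0.75 with cyclic loess. Without AA 20, 0 of 8 were called (0.265% of all tested probes), none had an unadjusted p below 0.05 (8.13% of all), and 7 of 8 were again higher (49.6% of all), with a median log2 change of 0.23. In 3 members, let-7a, let-7e and let-7f, AA 19 and AA 21 both exceeded the 3 controls, and in no member were both below them. Of all tested probes, 26.6% were separated in either direction, with both AA arrays above or both below the 3 controls.

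let-7a, the reference sequence of the family, gave normalized log2 signals of 14.78, 14.73 and 14.86 in control 13, 14 and 15 and of 15.06, 14.83 and 15.00 in AA 19, 20 and 21. AA 19 and AA 21 were above every control, but AA 20 fell within the control range. The change was 0.18 (SE 0.24, 95% interval −0.38 to 0.73, adjusted p = 0.885 by limma). Without AA 20 it was 0.24, with an interval from −0.22 to 0.70.

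let-7f, which shares clusters with let-7a and miR-98 and is 1 base from let-7a, moved much as let-7a did. Its signals were 14.42, 14.42 and 14.70 in the controls and 14.72, 14.61 and 14.74 in AA. AA 20 was the only AA array under control 15. The change was 0.17 (SE 0.24, adjusted p = 0.885 by limma) and 0.22 without AA 20, and the log2 ratio of let-7f to let-7a varied over the 6 arrays with an SD of 0.075.

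let-7b and let-7c are neighbours in one cluster and 1 base apart, and the signals of their probes moved together most closely. let-7b read 14.06, 14.10 and 14.53 in the controls and 14.36, 14.37 and 14.58 in AA. let-7c read 14.23, 14.36 and 14.71 in the controls and 14.61, 14.67 and 14.87 in AA. In both, control 15 was high and stood among the AA arrays. The SD of their log2 ratio over the 6 arrays was 0.055, the lowest of the 28 pairs of members. For comparison, the frog probe xtr-let-7e, 1 base from let-7a, followed let-7a at an SD of 0.097. Whether the let-7b and let-7c probes read each other's target was not tested. The log2 changes were 0.21 (SE 0.26) and 0.28 (SE 0.26, 95% interval −0.32 to 0.89), the latter the highest in the family and equal to a factor of 1.22 with bounds of 0.80 and 1.85. Their adjusted p-values by limma were 0.885 each. Without AA 20 the changes were 0.24 and 0.31.

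let-7d read 14.09, 14.42 and 14.66 in the controls and 14.54, 14.49 and 14.68 in AA. The 3 AA arrays fell in or just above the upper part of the control range. Its change was 0.18 (SE 0.26), and 0.22 (SE 0.24) without AA 20. let-7e, encoded with miR-99b and miR-125a, read 13.72, 14.09 and 13.68 in the controls and 14.16, 13.83 and 14.17 in AA. Control 14, not control 15, was the high control for let-7e, and AA 20 lay below it. The change was 0.23 (SE 0.26) with the 6 arrays and 0.34 (SE 0.22) without AA 20, with adjusted p-values by limma of 0.885 and 0.688.

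let-7i, with no other annotated miRNA gene within 10 kb, lost more scanner signal on AA 20 than any other let-7 member. Above the empty spots it read 7654, 5031 and 3761 in the controls and 9131, 1174 and 3609 in AA. AA 19 was 7.78 times as bright as AA 20, while for let-7a, at 39289 and 22528, the same ratio was 1.74. After normalization the signals were 11.91, 12.11 and 12.03 in the controls and 12.25, 12.25 and 11.86 in AA, so AA 20 was then level with AA 19. The change was 0.11 (SE 0.25, adjusted p = 0.926 by limma) and 0.042 without AA 20, but it was −0.54 after median scaling and −0.61 without normalization, with adjusted p-values of 0.994 and 0.991.

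miR-98 was the exception among the members in the spread of its normalized signal. It read 12.30, 13.13 and 11.72 in the controls and 12.48, 12.56 and 11.50 in AA, so control 14 was highest and AA 21 lowest. Its highest and lowest arrays differed by a factor of 3.10, whereas the factor was 1.24 to 1.56 for the 7 let-7 members. In scanner signal above the empty spots the factor was 6.11 for miR-98 and larger, 7.78, for let-7i. For the other let-7 members it was 1.70 to 2.72. The change was −0.20 (SE 0.46, 95% interval −1.28 to 0.87, adjusted p = 0.921 by limma). It was 0.17 without control 14 and 0.14 without AA 21, and −0.39 without AA 20, so the direction of miR-98 rested on single arrays. Its size moved with the scaling, to −0.76 with median scaling, −0.83 without normalization and −1.02 with array quality weights, with adjusted p-values of 0.994, 0.991 and 0.188.

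Among the 21 pairs of let-7 members the SD of the log2 ratio over the 6 arrays had a median of 0.19 and ran from 0.055 to 0.29. In the 7 pairs that included miR-98 it ran from 0.51 to 0.77, with a median of 0.70. The ranges did not overlap. Without AA 20 the medians were 0.19 and 0.77, and the ranges, 0.053 to 0.32 and 0.57 to 0.85, were again apart. These SDs describe 6 arrays shared by all pairs, and a sequence difference of 2 bases occurs in both kinds of pair.

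The rat probes outside the family whose profile over the 6 arrays was most like the mean of the members were the passenger strands rno-miR-30c-2* and rno-miR-29c*, then rno-miR-148b-3p, rno-miR-674-3p and rno-miR-346. The mean of the members was itself nearly flat, from 13.69 to 14.02 over the 6 arrays. A probe that varies little between arrays is therefore also like it. The SD of the log2 difference from the mean member was 0.117, 0.130, 0.163, 0.163 and 0.178, beside a median of 0.40 over the 172 rat probes ranked. This order depended on AA 20. Without it, in a ranking added after seeing the data, the closest 5 were rno-miR-30b-5p, rno-miR-29c*, rno-miR-497, rno-miR-505* and rno-miR-92b, at SDs of 0.064, 0.083, 0.089, 0.105 and 0.107 beside a median of 0.30. rno-miR-29c* was thus the only probe among the closest 5 in both, and rno-miR-30b-5p ranked 160 of 172 with AA 20 included.

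The other miRNAs transcribed with let-7 genes, miR-99a, miR-99b, miR-100, miR-125a-5p and miR-125b-5p, were examined as a list. With 6 arrays, 1 was higher and 4 were lower in AA, with a median log2 change of −0.18. Without AA 20 all 5 were higher, with a median of 0.19. Leaving out AA 20 thus turned the direction of the list. miR-100 read 7.69, 7.97 and 7.50 in the controls and 8.20, 6.10 and 8.41 in AA. miR-99a, encoded beside let-7c, read 8.57, 8.31 and 8.65 in the controls and 8.61, 6.47 and 8.73 in AA. On AA 20 both were more than 1 log2 unit below every other array, while their cluster partners let-7a and let-7c were within the range of the other arrays. The levels differ widely, however. On AA 20 miR-100 and miR-99a were near the floor, at 8.5 and 13.7 scanner units above the empty spots. let-7a and let-7c read 22528 and 18436 units there. No miRNA of this list was called with 6 arrays (0.177% of all tested probes) or without AA 20 (0.265% of all). At an unadjusted p below 0.05 limma gave 0 of 5 with 6 arrays (4.95% of all), as did the methods' t-test (4.68% of all). Without AA 20 limma gave 1 of 5 (8.13% of all), miR-100, with a change of 0.58 (SE 0.23, adjusted p = 0.593).

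Little signal came from the opposite arms and strands. Of the 10 probes for rat let-7 and miR-98 passenger strands, only let-7d* reached 32 on all 6 arrays and let-7b* on 2, and the other 8 did so on none. let-7d* gave 8.97, 9.31 and 9.79 in the controls and 8.80, 8.85 and 9.32 in AA, so its groups overlapped. The log2 changes of let-7d* and let-7b* were −0.36 (SE 0.31) and −0.39 (SE 0.37), with adjusted p = 0.885 by limma for each, and −0.30 and −0.29 without AA 20. At an unadjusted p below 0.05 limma and the methods' t-test each gave 0 of the 2, against 4.95% and 4.68% of all tested probes.

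The array also holds probes for miR-3596, whose sequence is the reverse complement of let-7. The rat versions miR-3596a, miR-3596b, miR-3596c and miR-3596d, opposite let-7a, let-7d, let-7e and let-7f, reached 32 on 0 of 6 arrays, and their scanner signals ran from −7.11 to 16.3 units above the empty spots. bta-miR-3596, a cattle sequence opposite let-7b, reached 32 on 5 arrays, at 33.4 to 91.1 scanner units.

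The related probes of other species come next. The sequences shown are a selection that holds both close and distant followers of a member. Capitals mark the bases that differ from the closest rat member. mdo-let-7i, without capitals, is let-7i without its last base.
xtr-let-7e: ugagguaguagguuguUuaguu
dre-let-7d: ugagguaguUgguuguaugguu
pma-let-7d: ugagguaguagguuguaAaguu
mdo-let-7i: ugagguaguaguuugugcugu
dre-let-7h: ugagguaguaaguuguGuuguu
dre-let-7g: ugagguaguagUuuguauaguu
oan-let-7e: ugagguaguagauugAauaguu
hsa-miR-4510: ugaggGaguaggAuguaugguu
hsa-let-7g: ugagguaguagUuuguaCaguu
dre-let-7j: ugagguaguUgUuuguaCaguu

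The names carry species prefixes, xtr for the frog Xenopus tropicalis, dre for zebrafish, pma for sea lamprey, mdo for opossum, oan for platypus, bta for cattle, gga for chicken, ssc for pig, fru for the pufferfish Fugu, cfa for dog, mmu for mouse and hsa for human. Of the 21, 15 targets were within 2 bases of a member and 6 were farther away. All 15 of the near ones reached 32 on at least 1 array and 14 did so on all 6, compared with 19.1% and 9.33% of the 4781 probes of other species as a whole. Of the 6 farther ones, 4 reached 32; fru-let-7j, which differs from let-7a by A10U, G11U, G12U and U18C, and cfa-let-7j, 7 bases from let-7f, did not. One of the near probes is a special case: the target of hsa-let-7g has no rat name in the array annotation, but it is identical to rat let-7g in RefSeq, encoded by Mirlet7g at chr8:115701020-115701107, which overlaps Wdr82 and Rpl29. It differs from let-7a by G12U and U18C.

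**Figure D2:**
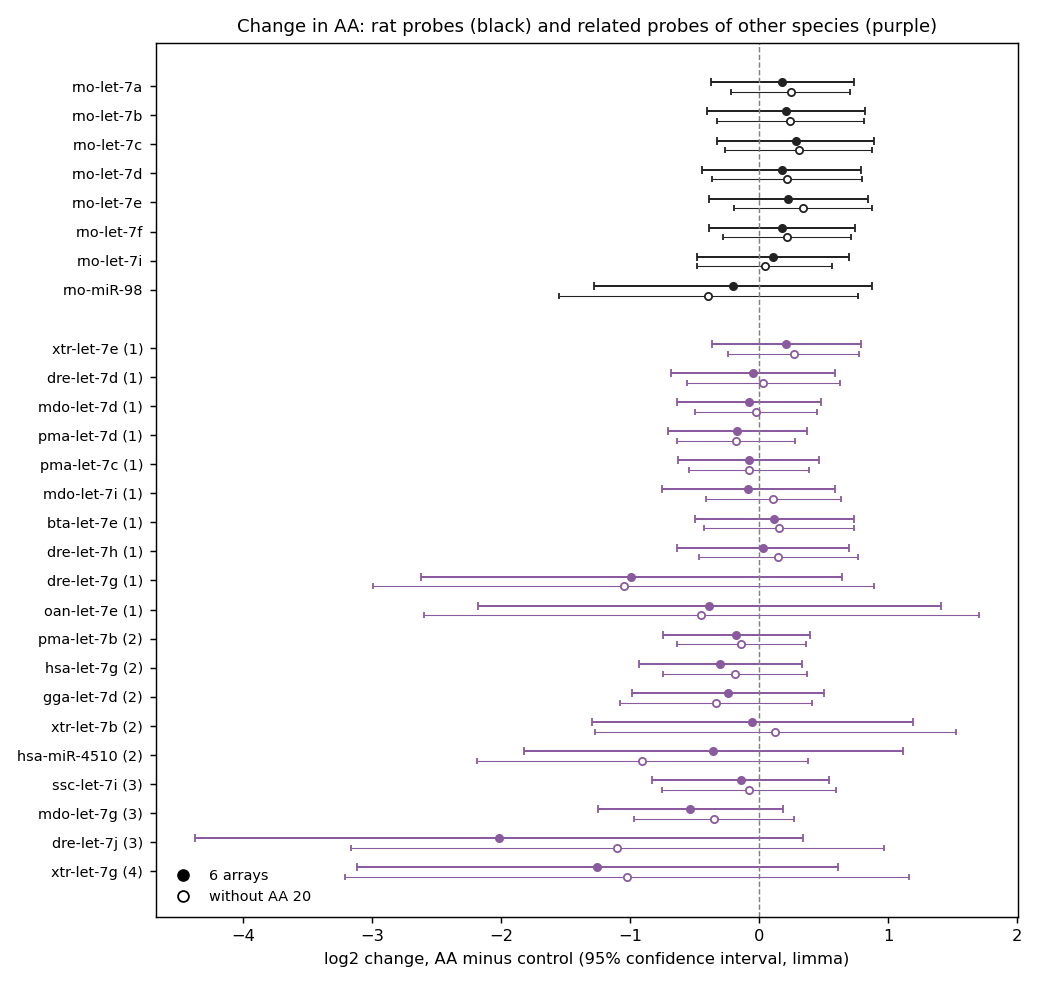
Log2 change of AA over control (horizontal axis) with 95% confidence intervals from limma for the 8 rat probes (black) and the 19 related probes of other species that were tested (purple, with the number of bases different from the closest rat probe in parentheses). Filled points use 6 arrays and open points leave out AA 20; every interval includes 0, and the 4 widest intervals belong to dre-let-7j, xtr-let-7g, oan-let-7e and dre-let-7g.

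Like the members, none of the related probes was called, where 0.177% of all tested probes were. Of the 19 tested, 3 were higher and 16 lower in AA, with a median log2 change of −0.17, where 45.8% of all tested probes were higher. The count at an unadjusted p below 0.05 was 0 by limma (4.95% of all tested probes) and 1 by the methods' t-test (4.68% of all). The median was −0.74 with median scaling and −0.81 without normalization, where that of all tested probes was −0.26 and −0.32, and −0.39 with array quality weights. With cyclic loess 7 were higher and 12 lower. Without AA 20, 0 were called (0.265% of all tested probes), 6 were higher and 13 lower, and the median was −0.14. With 6 arrays the groups did not overlap in 1 of the 19 (9.98% of all tested probes), pma-let-7d, with 14.66, 14.77 and 14.75 in the controls and 14.56, 14.58 and 14.54 in AA, a change of −0.17 (SE 0.23, adjusted p = 0.885 by limma). That probe differs from let-7a by U18A only, and let-7a itself was 0.18 higher in AA.

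How closely a relative followed its member was measured by the SD over the 6 arrays of the log2 ratio of the 2 signals, in which a constant difference in brightness cancels. The offset of 50 in the background correction narrows the ratios of dim probes, such as dre-let-7j, xtr-let-7g and hsa-miR-4510. For the 10 probes 1 base away the median SD was 0.28, with a range of 0.097 to 1.18. For the 5 probes 2 bases away it was 0.47, from 0.23 to 1.01, and for the 4 tested probes 3 or more bases away 0.92, from 0.25 to 1.85. The ranges overlap widely. Distance was counted to the members only, and rat let-7g is not one of them. Among the probes 3 or more bases away, mdo-let-7g and dre-let-7j lie 1 base and xtr-let-7g 2 bases from rat let-7g. hsa-let-7g, counted among the probes 2 bases away, matches rat let-7g exactly. The medians by distance therefore do not measure mismatch to the nearest rat let-7 miRNA. For comparison, 1098 tested probes outside the family had a median SD of 0.45 against let-7a and of 0.77 against miR-98. Without AA 20 the 3 medians were 0.26, 0.53 and 0.90, and those of the outside probes were 0.33 against let-7a and 0.73 against miR-98.

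**Figure D3:**
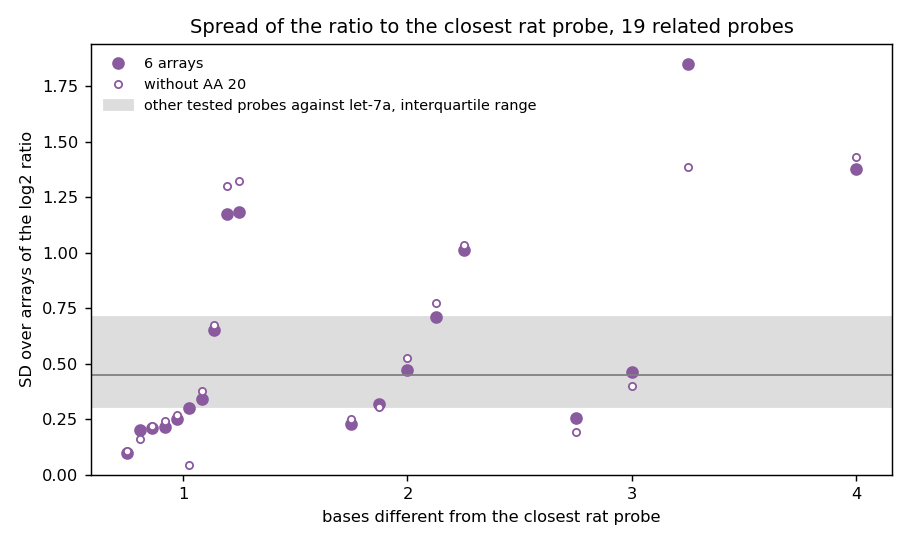
SD over arrays of the log2 ratio of each of 19 related probes to its closest rat probe (vertical axis) against the number of bases that differ (horizontal axis, points spread sideways for legibility). The closest rat probe is taken among the members, so distance to rat let-7g is not counted. Filled points use 6 arrays, open points leave out AA 20, and the grey band and line give the interquartile range and the median, 0.45, of 1098 other tested probes against let-7a; probes 1 base away run from 0.097 to 1.18.

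A group of 5 probes 1 base from a member stayed close to it. xtr-let-7e, with A17U, was the closest follower of let-7a: its signals were 14.10, 14.15 and 14.44 in the controls and 14.45, 14.32 and 14.55 in AA, and the SD of the ratio was 0.097. dre-let-7d, with A10U, followed let-7c at an SD of 0.20, and pma-let-7d, with U18A, followed let-7a at 0.22. pma-let-7c differs from let-7c by G12A and from let-7f by a single base as well, and its SD against let-7c was 0.25. mdo-let-7d, which lacks the last base of let-7d, had an SD of 0.21. With SDs of this size, the ratio of the brightest to the dimmest array relative to the member was at most 1.66-fold in these 5 probes.

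Another 2 probes lack only the last base of a member. mdo-let-7i gave 11.27, 11.50 and 11.37 in the controls and 11.67, 10.91 and 11.31 in AA. Against let-7i its SD was 0.30 over 6 arrays and 0.043 without AA 20, so its departure lay on AA 20, and the other 5 arrays differed by at most 1.07-fold. For bta-let-7e against let-7e the SD was 0.34 with AA 20 and 0.38 without it.

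Of the probes 1 base away, 2 departed far from their member. dre-let-7g differs from let-7a by G12U. Above the empty spots it read 19447, 17899 and 4427 scanner units in the controls and 17224, 1473 and 1941 in AA. It was bright on control 13, control 14 and AA 19 and dim on the other 3 arrays, whereas let-7a read 35311, 24829, 30157, 39289, 22528 and 30993 in the same order. The ratio had an SD of 1.18 and spanned 9.75-fold. oan-let-7e differs from let-7f by U16A, and read 14467, 12005 and 2883 in the controls and 18198, 1498 and 1641 in AA. The same 3 arrays were dim, and the SD was 1.18 with a span of 7.35-fold. Both spans were the same without AA 20, since AA 20 was neither the highest nor the lowest array in either ratio.

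dre-let-7h, the only relative closest to miR-98, shared the variation of miR-98 only in part. It differs by A17G and read 11.17, 11.80 and 11.67 in the controls and 11.67, 11.34 and 11.72 in AA. Both probes were highest on control 14, but on AA 21 miR-98 was at its lowest and dre-let-7h was near its highest. In scanner signal above the empty spots both were highest on AA 19 and lowest on AA 20. The SD of the ratio was 0.651, against a lower quartile of 0.648 and a median of 0.77 for the outside probes.

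Among the 5 probes 2 bases away, pma-let-7b (G15U and A17G from let-7a) was closest to its member at an SD of 0.23. gga-let-7d, with A10G and without the last base of let-7d, had an SD of 0.47 and xtr-let-7b, with G12U and A17G from let-7a, had 0.71. hsa-miR-4510, which breaks the seed with U6G and also carries U13A relative to let-7c, had an SD of 1.01. Its scanner signals were 284, 395 and 38.6 in the controls and 55.1, 49.9 and 35.9 in AA. On the scanner it was bright on control 13 and control 14 only, and after normalization AA 20, at 8.42, was high as well.

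The perfect-match let-7g probe, hsa-let-7g, read 13.14, 13.40 and 13.16 in the controls and 13.27, 12.71 and 12.82 in AA. AA 20 and AA 21 were below all controls and AA 19 was within their range. Its change was −0.30 (SE 0.27, 95% interval −0.93 to 0.33, adjusted p = 0.885 by limma), and −0.19 without AA 20. Among the other probes, 3 are 1 base from rat let-7g. Measured against hsa-let-7g, mdo-let-7g, which lacks the last base, had an SD of 0.19, dre-let-7g, with C18U, had 0.92, and dre-let-7j, with A10U, had 1.58. Against let-7a, dre-let-7j had an SD of 1.85 and a span of 30.7-fold, the widest of the 19 with 6 arrays. Its scanner signals were 3413, 2347 and 198 in the controls and 2382, 12.5 and 141 in AA, so on AA 20 it was not well above background. Without AA 20 its SD was 1.39 and its span 9.47-fold, and xtr-let-7g was then wider, at an SD of 1.43 and a span of 10.7-fold.

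The departures fell on the same arrays in many of the probes. These ratios are not independent, because several share a member and some related targets are nearly identical to each other. let-7a, for example, is the member in 6 of the 15 ratios within 2 bases. The ratio to the member was highest on control 14 in 12 of the 19 probes and lowest on AA 21 in 8, on AA 20 in 6, on AA 19 in 2 and on a control array in 3. Centred on the mean of each probe, the median log2 ratio over the 19 was 0.20, 0.33 and −0.0027 on control 13, 14 and 15, and −0.00028, −0.28 and −0.36 on AA 19, 20 and 21. Control 15 and AA 19 lay together between the other arrays. An exact two-sided permutation test of these 6 medians gave p = 0.2. For the 15 probes within 2 bases the medians were 0.16, 0.26 and 0.073 against −0.067, −0.14 and −0.23, with an exact permutation p = 0.1, the smallest that 3 against 3 allows. For those 15 probes without normalization, and for both sets without AA 20, the exact permutation p was 0.2. The mean signal above the empty spots was 484, 300, 263, 483, 149 and 270 on the 6 arrays in the same order. The role of array brightness in the departures was not tested.

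**Figure D4:**
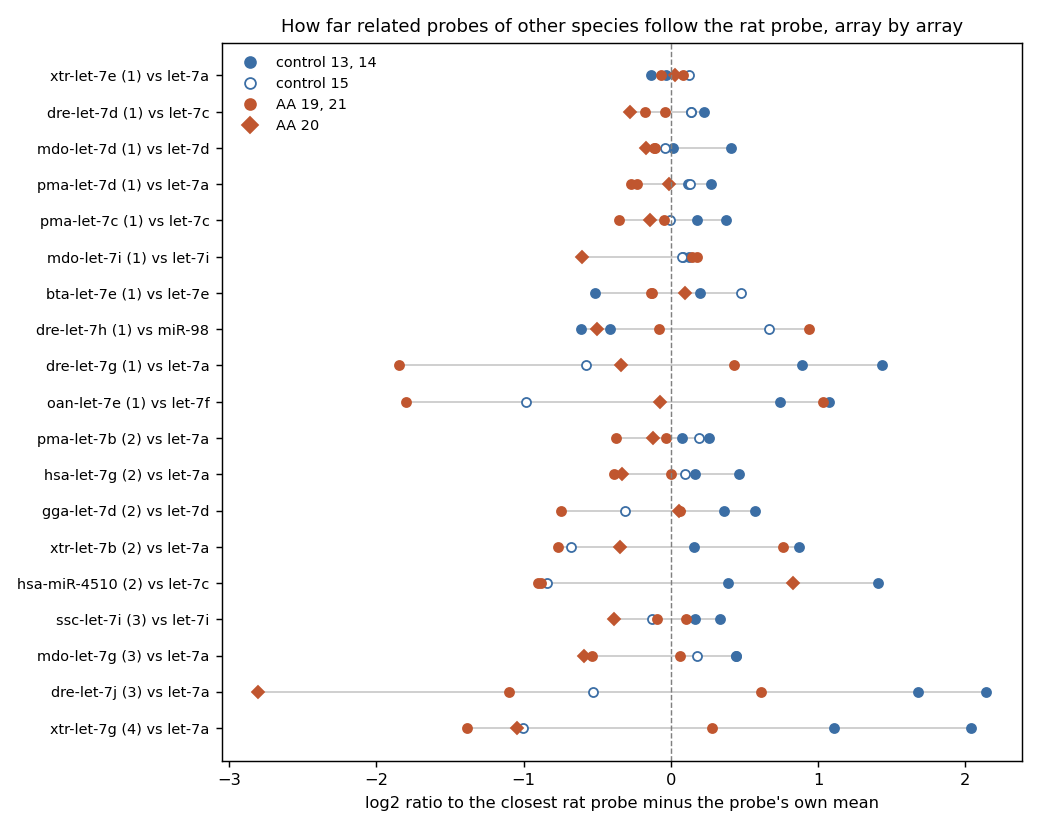
Log2 ratio of each of 19 related probes to its closest rat probe, minus that probe's own mean (horizontal axis), with 1 row per probe, the number of differing bases in parentheses and the rat probe named. Blue points are controls (control 15 open), orange points AA arrays (AA 20 a diamond); rows at the top stay within a narrow band, while dre-let-7g, oan-let-7e, dre-let-7j and xtr-let-7g reach more than 1 log2 unit to each side.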

How the data were processed

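The deposited scanner files give, per the file headers, the median pixel intensity of each of 15066 spots in 1 colour (Cy3), without background correction. The authors also deposited normalized intensity for 5559 of the 5560 probes (background subtraction and LOWESS; its reference is not stated). Scanner intensity was corrected with normexp (offset 50), control and empty spots were removed, then log2 values were brought to common quantiles across arrays and the spots of each probe were averaged. The 1132 probes at 32 or more on at least 1 array in the deposited values were tested; 1 probe outside that table was filtered on scanner signal. AA was compared with control by limma 3.58.1 (R 4.3.3), with Benjamini-Hochberg adjustment. A probe counted as well above background when it exceeded the empty-spot median by 3 robust SDs. Distance between targets counts substitutions and unpaired end bases, with 5′ ends shifted by at most 1; ties took the first member in the order let-7a, let-7b, let-7c. The methods' t-test was run on the same values. The statistics were tested on simulated data.

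The members, the lists and the tests were chosen with earlier results of these data known. Named probes were all members, for each member the related probes within 2 bases with the smallest and largest SD, the 5 rat probes most like the mean member profile, and list members where called or few; hsa-let-7g, dre-let-7j and other related probes were named after their values were seen. Groups came from the labels, which name no batch, slide or scan day. Replicates are separate animals. The number of arrays limits the precision, and values near the floor understate a change.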

Additional observations from a re-analysis of the deposited data

How the results depend on the processing

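No member and none of the related probes was called under any of the 18 other settings, or under 2 further settings chosen after seeing the data, which left AA 20 out before normalization and filtered on scanner signal. Over all tested probes, 2 were called with 6 arrays and 0 with cyclic loess, median scaling or no normalization, 44 with array quality weights and 0 to 3 when 1 array was left out, 3 of them without AA 20. The weights, lowest for AA 20 at 0.124, also gave 3 members an unadjusted p below 0.05, let-7b, let-7c and miR-98, with adjusted p from 0.179 to 0.219. An unadjusted p below 0.05 was then also found in 7 of the 19 related probes and in 243 of all 1132 tested probes, 21.5%.

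The median log2 change of the members was 0.18, and 0.75 with cyclic loess, 0.036 with median scaling, −0.032 without normalization, 0.27 with array quality weights and 0.13 to 0.24 with 1 array left out. The median of all tested probes was −0.05, and −0.26 with median scaling and −0.32 without normalization, so the members stood above it in each. The direction of a member turned in 9 of 160 recomputed changes. Without normalization let-7d was −0.023, let-7e −0.13, let-7f −0.042 and let-7i −0.61, and with median scaling let-7e was −0.061 and let-7i −0.54. let-7i was −0.075 with array quality weights, and miR-98, from −0.53 to 0.17 with 1 array left out, was 0.17 without control 14 and 0.14 without AA 21; with array quality weights it was −1.02. The cause was not tested.

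The median SD of the ratio of a related probe to its member was 0.32 over the 15 probes within 2 bases. It was 0.22 in the deposited values, 0.38 without normalization and 0.26 to 0.36 with 1 array left out. Single probes moved more. Without normalization hsa-let-7g went from 0.32 to 0.87 and xtr-let-7b from 0.71 to 1.445, whereas xtr-let-7e went from 0.097 to 0.062. Detection of all 8 members was the same on the scanner. No paired analysis was possible because the groups share no replicate numbers. With 3 arrays a group, an interval such as that of let-7a, −0.38 to 0.73 on the log2 scale, leaves moderate changes undetectable.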
